A study of Zea mays with 48 samples.

Results

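RR3 (gene model GRMZM2G035688) is a cytokinin response regulator of maize, also known as abph1, and is 1 of the 39656 gene models measured. It was taken by its identifier and selected on its measured change in level between 5, 7 and 9 days after pollination, so its levels across ages and tissues are described here without a test. The difference between the reciprocal crosses was not used in that choice and was tested.

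Messenger RNA was sequenced from kernels of crosses between the maize (Zea mays) inbred lines B73 and Mo17. The seed parent was Mo17 and the pollen parent B73 in the cross called MB, and the reverse in the cross called BM, so all embryos and endosperms were hybrids of the same lines. Embryos were cut out of kernel sections with a laser (laser capture microdissection, LCM) at ages of 3 and 5 DAP (days after pollination), or dissected by hand (called manual here) at 5, 7, 9, 11 and 13 DAP. Endosperm, the nutritive tissue beside the embryo, was collected at 5 DAP. With 3 biological replicates for each of the 8 sample kinds in either cross, there were 16 groups and 48 libraries. Each replicate was a pool of tissue from many seeds and several ears, so a value is an average over a pool and says nothing of single embryos.

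Cytokinin is sensed by membrane histidine kinases, which pass a phosphate group through small phosphotransfer proteins to response regulators in the nucleus. RR3 belongs to the A-type response regulators, whose genes are switched on by cytokinin and whose proteins dampen the response to it. In maize it is known as ABPHYL1: mutants that lack it have an enlarged shoot meristem and carry leaves in opposite pairs in place of the normal alternate arrangement.

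Levels are given as CPM, the RR3 reads of a library divided by all its reads assigned to gene models and scaled to the usual fixed total, and as FPKM, the authors' deposited value, which is also divided by transcript length and so can be set beside other genes. Total counts per library ran from 7130090 to 21698127. RR3 itself had 323 to 1269 reads per library in LCM embryos, and counting intervals given below cover counting error only. Pearson correlations of log2 CPM across genes between replicates of a group were at least 0.977 in manual embryos and endosperm, 0.962 to 0.979 in LCM embryos at 5 DAP and 0.872 to 0.973 in LCM embryos at 3 DAP. In the last kind BM replicate 3 and MB replicate 1 stood apart from their groups. The embryo regulator lec1 averaged 531 CPM in LCM embryos at 3 DAP and 921 CPM in those at 5 DAP. In manual embryos lec1 averaged 57.7 CPM at 5 DAP and 11.3 CPM at 13 DAP, and in endosperm 0.334 CPM. Other embryo markers did not all follow lec1. In endosperm and manual embryos at 5 DAP kn1 averaged 0.105 and 39.1 CPM and vp1 30.0 and 186 CPM. By contrast wox2a averaged 35.8 and 12.5 CPM and ole1 73.7 and 26.2 CPM. The 12 embryo marker models had a median sum of 155 CPM in endosperm. In manual embryos that sum was 319 CPM at 5 DAP and 3097 CPM at 13 DAP. Genes of the embryo-surrounding region of the endosperm were abundant in embryo libraries of both collection methods, and their values are given with the RR3 results.

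RR3 transcripts were abundant in the youngest embryos, scarce in embryos of 9 DAP and older, and almost undetected in endosperm. The mean level was highest in LCM embryos at 5 DAP, at 82.1 ± 24.1 CPM (SD, n = 6 libraries, as for the other sample kinds). It was 50.8 ± 25.5 CPM in LCM embryos at 3 DAP and 41.7 ± 8.56 CPM in manual embryos at 5 DAP. Library ranges of each of these neighbours in the order overlapped, so LCM embryos at 5 DAP were not parted from those at 3 DAP, nor those at 3 DAP from manual embryos at 5 DAP. Manual embryos at 7 DAP had 7.59 ± 3.66 CPM, and their range touched neither that of manual embryos at 5 DAP nor that of any older stage. Means at 9, 11 and 13 DAP were 0.375 ± 0.209, 0.706 ± 0.383 and 0.927 ± 0.220 CPM, with overlapping ranges. Endosperm came last with 0.0414 ± 0.0647 CPM, and its range overlapped that of embryos at 9 DAP. The deposited FPKM gave the same order of sample kinds: 111 ± 32.0 and 69.3 ± 34.7 FPKM in LCM embryos at 5 and 3 DAP, 56.6 ± 12.3 and 10.1 ± 4.54 FPKM in manual embryos at 5 and 7 DAP, and 0.0693 ± 0.109 FPKM in endosperm.

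**Figure D1:**
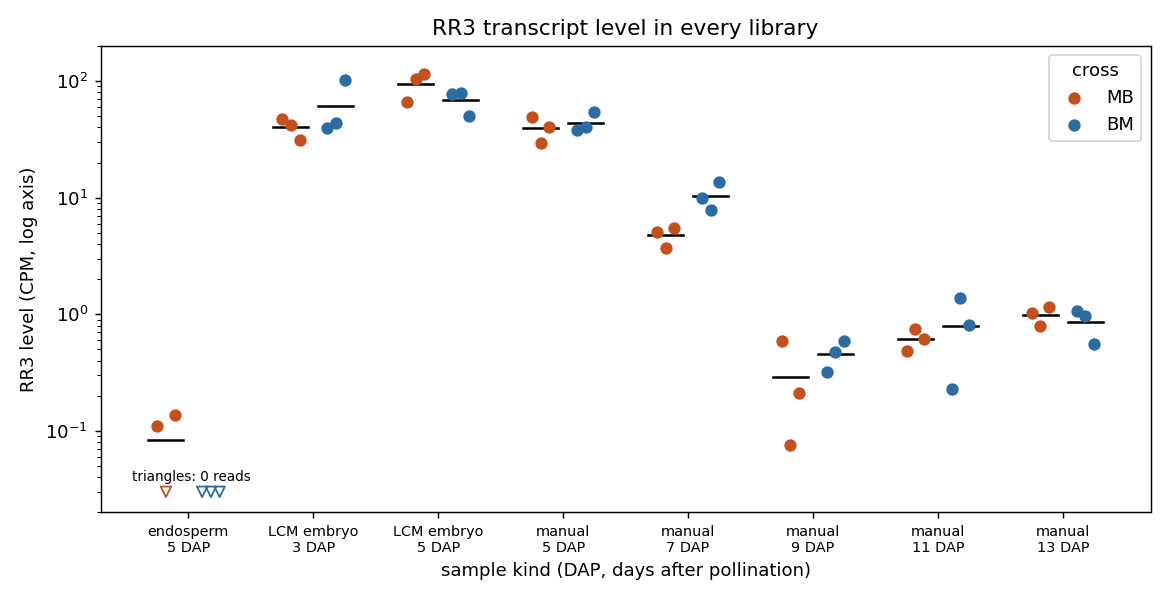
RR3 level in each of the 48 libraries in CPM on a log axis, by sample kind, with MB left of BM; bars are means of 3 libraries and triangles mark libraries without an RR3 read. Libraries of LCM embryos and of manual embryos at 5 DAP lie between 29.4 and 116 CPM, those at 7 DAP between 3.69 and 13.5 CPM, and all others below 1.37 CPM.

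In LCM embryos at 5 DAP the level was 66.2, 103 and 116 CPM in the MB libraries and 77.9, 79.0 and 50.2 CPM in the BM libraries. At 3 DAP it was 47.2, 42.2 and 31.0 CPM in MB and 39.5, 43.3 and 102 CPM in BM. BM replicate 3 at 3 DAP, with 1212 reads, had more than double the level of any other library of its kind, and it is one of the pair that stood apart in overall profile. Without that pair the mean at 3 DAP was 39.0 ± 5.59 CPM (SD, n = 4), and no library reached the lowest one at 5 DAP, a comparison chosen after seeing the data. Within MB the level at 5 DAP was 2.37-fold that at 3 DAP and the libraries did not overlap. Within BM the ratio was 1.12 and they overlapped. On the scale of TMM-normalised counts used for tests, the change from 3 to 5 DAP in LCM embryos was 0.50 ± 0.31 (log2, SE, both crosses), and 0.94 ± 0.22 without the pair.

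Manual embryos at 5 DAP had 48.8, 29.4 and 40.2 CPM in MB and 37.8, 40.4 and 53.8 CPM in BM. LCM embryos of the same age had 2.41-fold more in MB, without overlap, and 1.57-fold more in BM, with overlap. Tissue markers also differed between LCM and manual embryos of that age. The mean of lec1 was 921 CPM in LCM and 57.7 CPM in manual embryos. The median sum of the 12 embryo markers, lec1 among them, was 1103 CPM in LCM and 319 CPM in manual embryos. Single embryo markers went both ways. In LCM and manual embryos wox2a averaged 31.9 and 12.5 CPM and ole1 123 and 26.2 CPM. By contrast kn1 averaged 2.08 and 39.1 CPM, lg3 0.751 and 7.09 CPM, lg4 4.87 and 12.1 CPM, and vp1 167 and 186 CPM. The remaining embryo models had at most 4.33 CPM in either kind. The endosperm markers other than esr1, esr2 and esr3 averaged 39.6 CPM in LCM and 1670 CPM in manual embryos, and the median sum of the 6 maternal markers was 7.87 CPM in LCM and 21.9 CPM in manual embryos. Their part in the RR3 difference was not tested. That difference depended on scaling. The log2 ratio of mean CPM was 0.98 and that of TMM-normalised counts 1.71 ± 0.18, while the median of all genes tested stood at -0.15 on the TMM scale. On log2(FPKM + 1) the difference was 0.94 and the median of all genes -0.63. Relative to those medians RR3 was higher in LCM embryos by 1.86 on the TMM scale and by 1.57 on the FPKM scale. The direction was the same on each scale and the size was not.

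At 7 DAP the level was 5.04, 3.69 and 5.49 CPM in MB and 9.91, 7.85 and 13.5 CPM in BM, from 55 to 187 reads per library. All 6 libraries were below all 6 libraries of manual embryos at 5 DAP. The mean was 8.32-fold lower at 7 than at 5 DAP within MB and 4.22-fold lower within BM. Normalised counts gave a change of -2.49 ± 0.21 (log2, SE), beside a median near 0 for all genes. As these are pooled tissues, fewer cells that express RR3 and less RR3 RNA per cell cannot be told apart.

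The step between 7 and 9 DAP was larger. At 9 DAP the MB libraries had 0.589, 0.0754 and 0.211 CPM and the BM libraries 0.320, 0.471 and 0.585 CPM, from 1 to 9 reads each. The mean was 16.2-fold lower at 9 than at 7 DAP within MB and 22.7-fold lower within BM, with no overlap in either, and the fitted change was -4.26 ± 0.30 (log2, SE). At 9 DAP every library was thus near the limit of detection at this depth. Between 11 DAP (0.480, 0.743 and 0.613 CPM in MB, 0.228, 1.37 and 0.807 CPM in BM) and 9 DAP the mean ratio was 1.88, and the libraries overlapped in both crosses. At 13 DAP the level was 1.02, 0.792 and 1.16 CPM in MB and 1.07, 0.968 and 0.554 CPM in BM, 1.31-fold that at 11 DAP. The MB libraries at 13 DAP lay above those at 11 DAP and the BM libraries overlapped. At these ages each level rested on 3 to 24 reads.

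Endosperm at 5 DAP held 3 RR3 reads in its 6 libraries: 1, 0 and 2 in MB, and 0 in each BM library. The 0 reads of the BM libraries allow a level of up to 0.102 CPM (3 counts over the group). Over pooled reads, the endosperm level was set against each embryo kind by ratios with exact 95% counting intervals. Embryo over endosperm, the ratio was 1757 (601 to 8521) for LCM embryos at 5 DAP, 1088 (372 to 5276) for those at 3 DAP and 887 (303 to 4301) for manual embryos at 5 DAP. For manual embryos of 7 DAP the ratio was 162 (55.3 to 789). At 9, 11 and 13 DAP it was 7.86 (2.47 to 40.1), 15.8 (5.17 to 78.4) and 20.04 (6.63 to 99.04). The wide upper bounds come from the 3 endosperm reads.

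RR3 was among the more abundant transcripts of young embryos. By mean FPKM it ranked 1255 of 39656 gene models in LCM embryos at 5 DAP, 1882 in LCM embryos at 3 DAP and 2282 in manual embryos at 5 DAP. At 7, 9, 11 and 13 DAP its ranks were 10576, 21351, 19785 and 18374, and in endosperm it ranked 25169. CPM and FPKM ordered the libraries in nearly the same way, and in the 21 libraries with at least 100 RR3 reads the ratio of FPKM to CPM had a median of 1.36.

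The first question tested was whether the direction of the cross mattered for RR3. In embryos of 7 DAP RR3 was lower in MB: MB embryos had 4.74 ± 0.934 CPM and BM embryos 10.4 ± 2.88 CPM (SD, n = 3 each), and all 3 MB libraries were below all 3 BM libraries. The log2 fold change, MB over BM, was -1.19 ± 0.24 (SE, 95% interval -1.65 to -0.72). Its adjusted p was 0.0142 by edgeR's quasi-likelihood test, two-sided, with Benjamini-Hochberg adjustment over all genes tested. The 95% intervals of cross differences and interactions were set from the SE with the multiplier of a normal distribution. They make no allowance for the test's limited degrees of freedom and are therefore too narrow. Of the genes tested at 7 DAP 8.32% passed the same threshold of 0.05. The call was not firm: the adjusted p was 0.0538 without BM replicate 1, 0.0549 without MB replicate 2 and 0.108 in 1 fit over all 48 libraries, while the fold change stayed between -1.35 and -0.96 without any 1 library. The smallest p that an exact permutation test could give for 3 against 3 libraries is 0.1, so the call rests on a test that shares its estimate of the spread across genes.

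**Figure D2:**
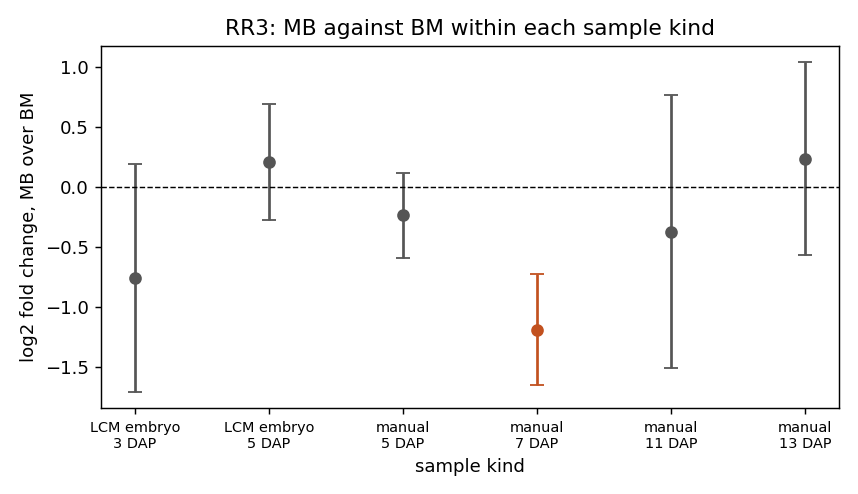
Log2 fold change of RR3, MB over BM, in the 6 sample kinds where the gene passed the filter on low counts. Bars are 95% intervals from the multiplier of a normal distribution, which are too narrow for so few libraries. The coloured point passed an adjusted p of 0.05. Only at 7 DAP, at -1.19, did the interval exclude 0.

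Marker sums were compared between the crosses at 7 DAP. Summed over 21 endosperm marker models (20 to 21 of them with reads), the level was 515 to 2685 CPM in MB and 2019 to 2536 CPM in BM, with overlap. Among these markers, the embryo-surrounding region genes esr1, esr2 and esr3 summed to 279, 267 and 1895 CPM in MB and 1110, 838 and 1632 CPM in BM. Summed over 12 embryo marker models (11 to 12 with reads) it was 430 to 673 CPM in MB and 323 to 387 CPM in BM, without overlap and higher in MB. The 6 markers of maternal ovule and seed coat (5 to 6 with reads) summed to 7.94 to 21.1 CPM in MB and 18.4 to 19.1 CPM in BM, with overlap. The part of these markers in the RR3 difference was not tested. Libraries of the crosses were matched by days after pollination alone, and RR3 fell with age on either side of 7 DAP within each cross. Whether the crosses were at the same stage of development at 7 DAP was not tested. The part of such a stage difference in the RR3 difference was not tested either. MB replicate 3, which had the highest endosperm and esr sums of all 6 libraries, had 5.49 CPM of RR3, the highest of its group and below every BM library.

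In the other sample kinds no cross difference of RR3 passed the test. Manual embryos at 5 DAP had 39.4 ± 9.72 CPM in MB and 44.0 ± 8.56 CPM in BM, with a log2 fold change of -0.24 ± 0.18 (95% interval -0.59 to 0.12, adjusted p = 0.38, edgeR), where 27.2% of all genes tested passed. At that age the endosperm marker sum was 2249 to 2287 CPM in MB and 11340 to 12834 CPM in BM, while the RR3 libraries of both crosses overlapped. LCM embryos at 5 DAP had 95.2 ± 25.9 CPM in MB and 69.0 ± 16.3 CPM in BM, a change of 0.21 ± 0.25 (-0.27 to 0.69, adjusted p = 0.638, edgeR; 6.96% of genes passed). LCM embryos at 3 DAP had 40.1 ± 8.32 CPM in MB and 61.5 ± 34.8 CPM in BM, a change of -0.76 ± 0.48 (-1.71 to 0.19, adjusted p = 0.702, edgeR), where 0.0161% of genes passed. Without BM replicate 3 that change was -0.12 and without the pair that stood apart -0.35, so the size at 3 DAP depended on that library. The changes at 11 DAP (-0.37 ± 0.58, adjusted p = 0.716, edgeR; 14.3% of genes passed) and 13 DAP (0.23 ± 0.41, adjusted p = 0.707, edgeR; 26.5% passed) did not pass either. The intervals in LCM embryos at 3 DAP and at 11 DAP (-1.51 to 0.76) included the change measured at 7 DAP, and the one at 13 DAP (-0.57 to 1.04) did not. At 11 DAP the sign turned to 0.26 without BM replicate 2. At 9 DAP (0.029% of genes passed) and in endosperm (21.3% passed) RR3 had too few reads to enter the test.

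Whether the cross difference itself changed between sample kinds was tested by 4 interaction terms, and none passed. From 5 to 7 DAP in manual embryos the MB over BM log2 fold change shifted by -0.92 ± 0.33 (95% interval -1.56 to -0.28, adjusted p = 0.089, edgeR), where 11.7% of genes passed. This term passed under DESeq2 (adjusted p = 0.0287), and in edgeR without BM 5 DAP replicate 3 (0.0449), MB 5 DAP replicate 2 (0.0278) or BM 7 DAP replicate 2 (0.0462). Without other single libraries its adjusted p reached 0.177, and in 1 fit over all 48 libraries it was 0.585. The other 3 terms, with 0.699%, 5.78% and 19.8% of genes passing, were 0.55 ± 0.67 for 9 against 7 DAP (adjusted p = 0.825, edgeR), 0.46 ± 0.33 for LCM against manual embryos at 5 DAP (adjusted p = 0.431, edgeR) and 3.74 ± 2.18 for endosperm against manual embryos (adjusted p = 0.262, edgeR). The last rests on 3 endosperm reads, and the term for 9 against 7 DAP turned to -0.30 without MB 9 DAP replicate 1.

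RR3 levels were then set beside those of the embryo-surrounding region genes esr1, esr2 and esr3, endosperm genes expressed around the young embryo, which were chosen after their values were seen. Their summed level averaged 2353 CPM in LCM embryos at 3 DAP and 8792 CPM in those at 5 DAP. Manual embryos of 5, 7, 9, 11 and 13 DAP averaged 5559, 1004, 543, 387 and 199 CPM and endosperm 147 CPM, so the sum was high in the same young embryo kinds as RR3. By cross means, the sum and RR3 went the same way in some sample kinds and opposite ways in others. In manual embryos at 5 DAP the sum averaged 1734 CPM in MB and 9384 CPM in BM. RR3 was also higher in BM by its mean, at 44.0 CPM against 39.4 CPM in MB, with overlapping libraries. Among LCM embryos at 5 DAP, MB replicate 1 had the highest sum, 24478 CPM, and the lowest RR3 level of its group, 66.2 CPM. At 13 DAP the sum was 8.06 to 18.2 CPM in MB and 262 to 476 CPM in BM, while RR3 was 0.792 to 1.16 CPM in MB and 0.554 to 1.07 CPM in BM. In LCM embryos at 3 DAP the sum averaged 3023 CPM in MB and 1682 CPM in BM, while RR3 averaged 40.1 and 61.5 CPM. For embryos of 9 DAP the sum averaged 724 CPM in MB and 361 CPM in BM, while RR3 averaged 0.292 and 0.459 CPM. At 7 DAP the sum averaged 814 CPM in MB and 1193 CPM in BM, lower in MB as RR3 was. In LCM embryos at 5 DAP it averaged 12569 CPM in MB and 5014 CPM in BM, and at 11 DAP 346 CPM in MB and 429 CPM in BM. In both kinds the higher mean was in the cross that had the higher mean of RR3. Endosperm averaged 182 CPM of the sum in MB and 113 CPM in BM, where RR3 had 3 reads in MB and 0 in BM. The part of the esr genes in the RR3 levels was not tested. The other endosperm markers summed to 39.6 CPM in LCM embryos at 5 DAP and to 2297 CPM in endosperm. Among them dzs18, fl2, gz50 and o2 had no read in any LCM library at 5 DAP. In endosperm of that age they also had low means, of 9.07, 0.0872, 0.144 and 0.856 CPM. Their lack of reads therefore says little of the endosperm content of LCM embryos.

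**Figure D3:**
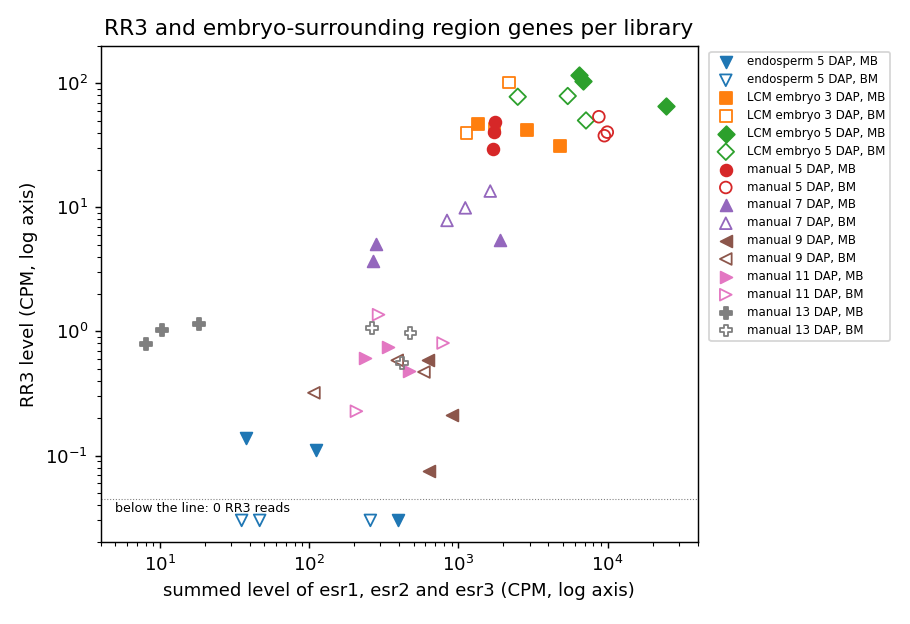
RR3 level against the summed level of esr1, esr2 and esr3 in each library, both in CPM on log axes; filled symbols are MB, open symbols BM, and points below the dotted line had no RR3 read. At 5 DAP manual embryos of MB and BM differ in the summed level (1734 and 9384 CPM on average) at overlapping RR3 levels, and at 13 DAP the crosses part in the sum in the same way.

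Among the response regulators that could be named, RR3 made up its largest shares in young embryos. The names table gave 13 gene models of response regulators, all of them detected at a mean of at least 1 CPM in some group. That table held 47.3% of the gene models. Response regulators without a name in it are not counted, so the shares are of this list and not of the whole family. Of these 3 share 1 entry of the names table, crr5, and are counted here as separate models. Whether they are separate genes was not examined, and reads may have been split between them. By FPKM, RR3 accounted for 67.4% of the sum over the 13 in LCM embryos at 5 DAP (59.6% to 75.0% in single libraries). The share was 41.6% in LCM embryos at 3 DAP (27.2% to 51.8%) and 24.6% in manual embryos at 5 DAP (19.1% to 30.1%). RR3 had the highest mean of the 13 in both crosses of the LCM kinds and in MB manual embryos at 5 DAP, whereas in BM manual embryos at 5 DAP it came after tcrr-1. At 7 DAP its share was 7.95% and it ranked 6 of 13. At 9, 11 and 13 DAP the shares were 0.577%, 1.23% and 1.47%, and in endosperm 0.0744%.

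Other regulators had the highest means elsewhere. The transfer-cell response regulator tcrr-1 (GRMZM2G016145), a gene named for the transfer cells at the base of the endosperm, had 47.5 ± 49.5 FPKM in endosperm and 49.9 ± 49.8 FPKM in manual embryos at 5 DAP (n = 6 each). The libraries of the crosses stood far apart: manual embryos at 5 DAP had 4.71 ± 0.808 FPKM in MB and 95 ± 8.61 FPKM in BM, beside 55.0 ± 13.7 FPKM in MB and 58.1 ± 13.6 FPKM in BM for RR3, and endosperm had 3.97 ± 3.68 FPKM in MB and 91.0 ± 20.7 FPKM in BM. LCM embryos at 5 DAP had no tcrr-1 read. Over both crosses pooled, that was at least 639-fold lower than manual embryos of that age, against a floor of 3 counts over the LCM group. Of the 2378 tcrr-1 reads in those manual embryos 2259 were in BM and 119 in MB. The bound thus rests on BM and does not apply to MB alone. The crr5 model GRMZM2G032496 had 26.9, 32.4 and 41.0 FPKM at 9, 11 and 13 DAP, the highest means over both crosses. In MB embryos at 9 DAP tcrr-1 was higher, at 29.9 FPKM against 25.4 FPKM for that crr5 model.

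**Figure D4:**
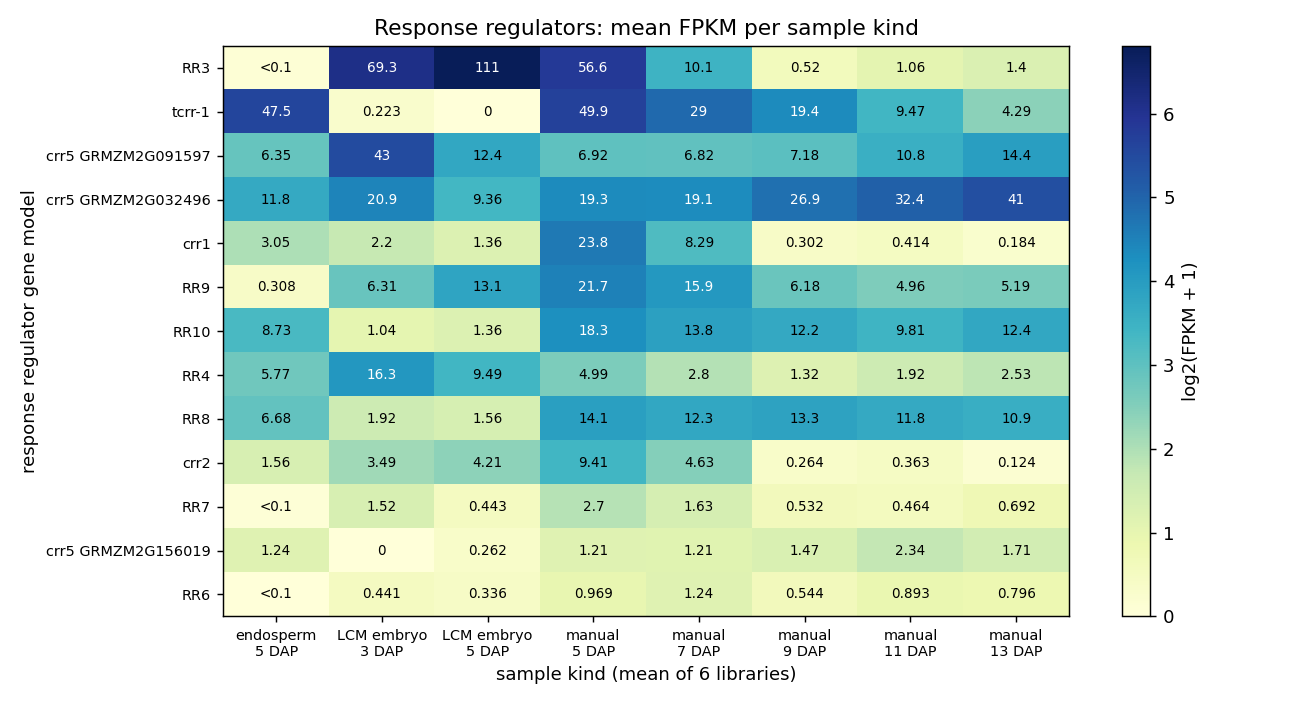
Mean FPKM over 6 libraries of the 13 response regulator gene models (down) in the 8 sample kinds (across), coloured by log2(FPKM + 1). RR3 has the highest mean in the LCM kinds, with 111 FPKM at 5 DAP, and is near 0 in endosperm. Means of tcrr-1 pool crosses that differ widely, with 4.71 FPKM in MB and 95 FPKM in BM manual embryos at 5 DAP.

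The rest of the cytokinin pathway was followed through a list of 34 gene models taken by symbol from the names table: the 13 response regulators, 6 receptors and phosphotransfer proteins, 13 genes of cytokinin degradation or conjugation and 2 of synthesis. Of the 33 other than RR3, 25 were detected. The counts below leave RR3 out and use edgeR's quasi-likelihood test with an adjusted p under 0.05 over all genes. Comparisons that share libraries, such as endosperm and LCM embryos against the same manual embryos, are not independent of each other.

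From 5 to 7 DAP in manual embryos 2 of 25 tested list members were higher and 11 were lower, where 40.6% of all genes passed (19.6% higher, 21% lower). The median log2 fold change was -0.27 over the list and -0.01 over all genes. Among the 12 other response regulators 4 fell and none rose. They were crr1 (GRMZM2G040736, -1.49 ± 0.35, adjusted p = 0.005, edgeR), crr2 (GRMZM2G392101, -0.99 ± 0.23), RR4 (GRMZM2G319187, -0.65 ± 0.20) and RR10 (GRMZM2G126834, -0.38 ± 0.07). The RR3 change of -2.49 was larger in size than that of any other regulator that passed. RR3 was selected on this change and the others were not, so that order follows in part from the choice. Of the receptors and phosphotransfer proteins 4 of 6 fell, among them HP1 (GRMZM2G016439, -0.83 ± 0.08) and HP3 (GRMZM2G451604, -0.92 ± 0.09), which carry phosphate to the regulators. CKX10 (GRMZM2G348452), a cytokinin dehydrogenase that breaks the hormone down, fell by 1.38 ± 0.23 on the log2 scale (adjusted p = 0.00046, edgeR), and cko1 (GRMZM2G146644), of the same enzyme class, rose by 0.63 ± 0.17 (adjusted p = 0.0075, edgeR). In 1 fit over all 48 libraries 8 members passed in place of 13, where 5240 of 25454 genes passed in place of 9333 of 22972.

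From 7 to 9 DAP 3 of 25 list members were higher and 11 lower, where 39.1% of all genes passed (19.1% higher, 20% lower), with medians of -0.29 over the list and 0.00 over all genes. Of the 12 other regulators 6 fell and 1 rose. The fall of crr2 (-4.45 ± 0.44, adjusted p = 3.7e-06, edgeR) and of crr1 (-4.36 ± 0.41, adjusted p = 1.8e-06, edgeR) was of the size of the RR3 change, -4.26 ± 0.30. In FPKM, crr1 had 0.302 ± 0.339 at 9 DAP against 8.29 ± 3.93 at 7 DAP, and crr2 had 0.264 ± 0.266 at 9 DAP against 4.63 ± 1.48 at 7 DAP. RR7 (GRMZM2G096171, -1.46 ± 0.38), RR9 (GRMZM2G060485, -1.21 ± 0.13), RR6 (GRMZM2G129954, -1.09 ± 0.34) and RR4 (-0.995 ± 0.22) fell by smaller amounts. The regulator that rose was the crr5 model GRMZM2G032496 (0.60 ± 0.10, adjusted p = 0.00021, edgeR). HP1 fell by 0.29 ± 0.08, CKX10 fell by 1.12 ± 0.39 and the synthesis gene IPT1 (GRMZM2G097258) fell by 0.34 ± 0.11, all on the log2 scale, and cko1 rose by 0.51 ± 0.18.

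After 9 DAP the share of the list that passed was near that of all genes. Between 9 and 11 DAP 3 of 22 list members were higher and 3 lower (26% of all genes passed), with a regulator change of 0.68 ± 0.21 for crr5 GRMZM2G091597, -0.43 ± 0.14 for RR9 and -0.33 ± 0.09 for RR10. The count of 6 was 3 without MB 9 DAP replicate 1 or MB 11 DAP replicate 3. In those fits 4007 of 22503 and 4068 of 22413 genes passed, in place of 5722 of 21990. Between 11 and 13 DAP 1 of 22 passed, lower (6.4% of all genes passed, 3.59% higher and 2.81% lower), and it was no regulator. That count was 5 without BM 11 DAP replicate 1 and 3 without BM 11 DAP replicate 3 or BM 13 DAP replicate 1. It was 0 without MB 13 DAP replicate 3 and 4 with DESeq2. Of all genes 3066 of 22370 passed without BM 11 DAP replicate 1 and 1781 of 22094 without BM 11 DAP replicate 3. With DESeq2 3469 of 21774 passed, and for the remaining fits that number is not given here.

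In LCM embryos at 5 against 3 DAP none of 20 list members was higher and 4 were lower (9.88% of all genes passed, 2.85% higher and 7.04% lower): HP1 by -2.52 ± 0.21 (adjusted p = 9.5e-05, edgeR), HP3 by -1.71 ± 0.35, crr5 GRMZM2G032496 by -1.35 ± 0.36 and RR4 by -1.01 ± 0.29. RR3, at 0.50 ± 0.31, did not share that direction. The count was 2 without BM 5 DAP replicate 1, MB 5 DAP replicate 2 or MB 5 DAP replicate 3. It was 13 in 1 fit over all 48 libraries, where 10114 of 25454 genes passed in place of 1993 of 20168. Without the pair of 3 DAP libraries that stood apart, 6 of 21 list members passed, 2 higher and 4 lower. For the fits with libraries left out the number of all genes that passed is not given here, so their counts lack a background.

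In LCM against manual embryos at 5 DAP 8 of 24 list members were higher and 12 lower, a comparison in which 76.4% of all genes passed (35.4% higher, 41% lower). The medians were -0.81 over the list and -0.15 over all genes. RR4 (1.33 ± 0.20) and crr5 GRMZM2G091597 (1.42 ± 0.42) were the other regulators higher in LCM embryos. RR10 (-2.99 ± 0.24), RR8 (GRMZM2G099797, -2.41 ± 0.23), crr1 (-3.31 ± 0.29), RR7 (-1.86 ± 0.40) and crr5 GRMZM2G032496 (-0.67 ± 0.18) were lower, besides tcrr-1. Outside the regulators CKX10 was higher by 2.65 ± 0.32 and cko1 was lower (-5.15 ± 0.49). In FPKM CKX10 reached 81.6 ± 27.8 in LCM embryos at 5 DAP, against 17.1 ± 7.66 in manual embryos.

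In endosperm against manual embryos at 5 DAP 5 of 25 list members were higher and 14 lower, where 79.9% of all genes passed (37.7% higher, 42.2% lower). Of the 12 other regulators 8 were lower, led by RR9 (-5.65 ± 0.25, adjusted p = 4.3e-11, edgeR), RR7 (-5.47 ± 0.48) and RR6 (-4.41 ± 0.69), and RR4 was higher (0.54 ± 0.13). RR9 had 0.308 ± 0.091 FPKM in endosperm and 21.7 ± 11.7 FPKM in manual embryos. The phosphotransfer genes HP3 (2.75 ± 0.13) and HP1 (2.199 ± 0.14) were higher in endosperm, while hp2 (GRMZM2G014154, -0.03 ± 0.07, adjusted p = 0.672, edgeR), named after its value was seen, did not pass, and HP1 reached 366 ± 42.3 FPKM in endosperm against 97.4 ± 17.3 FPKM in manual embryos. In endosperm against LCM embryos of that age 9 of 21 were higher and 9 lower (79.4% of all genes passed), and RR9 was again lower (-5.66 ± 0.29, adjusted p = 1.8e-10, edgeR).

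Genes whose profile was most like that of RR3 were found by Pearson's r of log2(mean CPM + 1) over the 16 group means, among 17435 other genes with a group mean of at least 10 CPM. The group means share scaling and, within a kind, collection, so r is given as a description. The median r was -0.297, and 73 genes (0.419%) had an r of at least 0.95. The most similar with an informative name were gst23 (GRMZM2G416632, a glutathione transferase, r = 0.978), NAC63 (GRMZM2G054277, a NAC transcription factor, 0.976), TE1 (GRMZM2G085113, the MEI2-like RNA-binding protein of the terminal ear gene, 0.973), PR10 (GRMZM2G112524, a pathogenesis-related protein, 0.968) and prf1 (GRMZM2G074361, a profilin, 0.958). They ranked 8, 11, 15, 24 and 50 among all genes. The set was not stable: 3 of the 5 were among the 20 most similar genes here. With deposited FPKM it was 1, over single libraries or with log2(CPM + 0.1) 2, and by Spearman's rho or without LCM libraries 0. By Spearman's rho NAC63 and PR10 had 0.797 and 0.803. TE1 had 15.8 and 22.2 CPM in LCM embryos at 3 and 5 DAP, and 0.0452 CPM in endosperm. In manual embryos of 5, 7, 9, 11 and 13 DAP it had 15.6, 2.68, 0.829, 0.829 and 0.428 CPM. PR10 differed from RR3 in being highest in manual embryos at 5 DAP, at 34.02 CPM. Within the cytokinin list the most similar were CKX10 (r = 0.855) and crr2 (0.850), and the least similar was cko1 (-0.732).

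**Figure D5:**
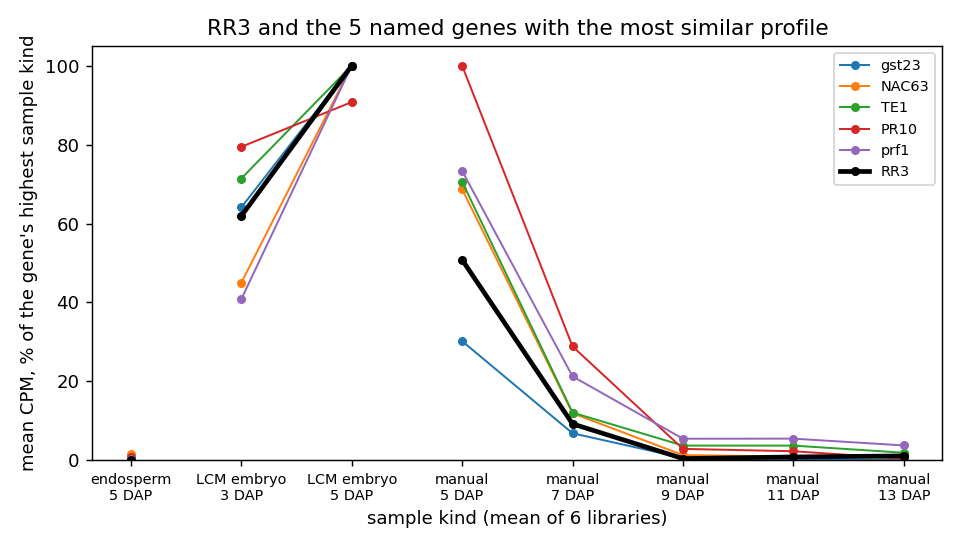
Mean CPM over 6 libraries of RR3 (black) and the 5 named genes most like it, as a percent of each gene's highest sample kind; lines join LCM ages and manual ages. For RR3 manual embryos at 5 DAP stand at 50.8% and those at 7 DAP at 9.24% of LCM embryos at 5 DAP, and all 6 genes are near 0 in endosperm.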

How the data were processed

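The deposited table gave raw counts per gene model as whole numbers, per the file headers, and the authors' FPKM per library. The submitters' processing notes name TopHat, HTSeq, Cufflinks 2.2.1 and FastQC. Which genome build, annotation release and strand setting applied is not given in the sources used here; antisense transcripts cannot be told apart from RR3. Symbols came from a RefSeq names table that held 18775 of the gene models (47.3%). CPM is the count over the sum of all gene models of a library.

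Tests used edgeR 4.0.16 in R 4.3.3 on the counts (filterByExpr by group, TMM, robust glmQLFit, glmQLFTest). Age, tissue and collection comparisons took 12 libraries with cross as an additive term, cross comparisons 3 against 3, and interactions 12. Adjusted p-values run over all genes tested. The fits were also run on counts simulated with edgeR's own dispersion estimates. Such a run checks the code and cannot show that calls hold for these libraries. Alternatives were RLE size factors, no filter, DESeq2 1.42.0, limma 3.58.1 on log2(FPKM + 1), a replicate block, 1 fit over 48 libraries and leaving out each library. No 2 libraries of a group were duplicates.

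The gene, the cytokinin list and the marker lists were chosen with earlier results of these data known. Named were all detected response regulators, the 2 most abundant genes of each other cytokinin class, and the 5 named genes with the highest r; markers were summed. The list models lec1, kn1, lg3, lg4, vp1, wox2a, ole1, dzs18, fl2, gz50 and o2 and the esr genes were named after their values were seen. Replicate numbers were not taken to pair libraries. In 0 of 24 pairs of groups were all correlations of same-numbered libraries over 0.1 (range -0.392 to 0.564), and 43 of 72 were positive. This rule cannot show that libraries were unpaired.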

Additional observations from a re-analysis of the deposited data

How the results depend on the processing

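Over all settings the direction of the RR3 changes with age, tissue and collection did not turn. With TMM-scaled library sizes manual embryos at 5 and 13 DAP stood at 30.5% and 0.732% of LCM embryos at 5 DAP, against 50.8% and 1.13% with plain totals. On log2(FPKM + 1) the RR3 changes were -2.79 (9 against 7 DAP), 0.94 (LCM against manual), -5.73 (endosperm against manual) and -6.67 (endosperm against LCM). That scale adds 1 to each FPKM, which shortens falls to values under 1. Mean RR3 FPKM was 0.520 at 9 DAP and 0.0693 in endosperm. How much of each change the added 1 accounts for was not tested. In 1 fit over 48 libraries the endosperm changes were -10.15 and -11.88, and without 1 library they ran from -10.1 to -8.86 and from -11.6 to -10.5. The cross difference at 7 DAP was -1.19 with adjusted p = 0.108 in 1 fit over 48 libraries, and -1.35 to -0.96 without 1 library. The cross differences ran from -0.75 to 0.26 at 11 DAP, the interaction of 7 and 5 DAP from -1.12 to -0.73 and that of 9 and 7 DAP from -0.30 to 0.95. The interaction of 7 and 5 DAP was -0.93 with DESeq2 (adjusted p = 0.0287) and -0.95 in 1 fit over 48 libraries (adjusted p = 0.585). The cause of these shifts was not tested.

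With the replicate number as a block that interaction was -0.91 (adjusted p = 0.0164, edgeR) and the cross difference at 7 DAP kept its call. Whether the numbers pair libraries was not settled. Cytokinin list counts in 1 fit over 48 libraries were 8, 1, 2 and 13 for 7 against 5, 11 against 9, 13 against 11 DAP and LCM 5 against 3 DAP (in place of 13, 6, 1 and 4); DESeq2 gave 4 for 13 against 11 DAP. Without 1 library the last 3 ran over 3 to 7, 0 to 5 and 2 to 5. The number of all genes that passed moved too. For 13 against 11 DAP it was 180 of 22189 without MB 11 DAP replicate 1 and 3066 of 22370 without BM 11 DAP replicate 1. With all libraries it was 1394 of 21774. These list counts therefore do not show a shift particular to the list. In the fit over 48 libraries 5240, 2359, 1342 and 10114 of 25454 genes passed for 7 against 5, 11 against 9, 13 against 11 DAP and LCM 5 against 3 DAP. DESeq2 passed 3469 of 21774 genes for 13 against 11 DAP. Genes with r of at least 0.95 to RR3 numbered 33 over single libraries, 13 by Spearman's rho, 46 with log2(CPM + 0.1) and 145 without LCM libraries, in place of 73. RR3 could not be fitted on FPKM for 11 against 9 DAP (mean FPKM under 1). With 1 to 24 reads per library from 9 DAP on, depth limits what can be said of RR3 there.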
